A study of Mus musculus with 14 samples.

Results

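The keratin and Sprr genes of the mouse colon were read on 14 one-colour Agilent arrays, in mice with or without the glucocorticoid receptor (GR) in the intestinal epithelium and with or without chemically induced colitis. Members were all genes whose symbol begins with Krt and a digit (keratin-associated Krtap genes not included) or with Sprr, each represented by its probe of highest mean signal. A named probe was found for 56 of them, 43 Krt and 13 Sprr genes, among 19096 named genes, and 16 further members of the gene table had none. Flox mice carried a GR gene flanked by loxP sites in both copies (GR fl/fl) and were the controls. GR iKO mice carried the same alleles together with Villin-cre, a constitutive transgene whose promoter is active in the intestinal epithelium, so that cells other than epithelium kept GR. All mice were C57BL/6 females aged 4 to 6 months. For 7 days their drinking water was either left plain or supplemented with 2.5% dextran sulfate sodium (DSS), a polysaccharide that damages the lining of the colon and induces colitis. The water groups held 4 mice per genotype and the DSS groups 3, with RNA of 1 whole colon on each array.

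Keratins are the intermediate filament proteins of epithelial cells. They assemble from an acidic (type I) and a basic (type II) partner and anchor at desmosomes. Simple keratins such as Krt8, Krt18, Krt19 and Krt20 form the filaments of the single-layered intestinal epithelium, stratified keratins those of skin, oesophagus and other multilayered epithelia, and hair and nail keratins those of hard appendages. Small proline-rich (Sprr) proteins are crosslinked by transglutaminases into the cornified envelope under the membrane of squamous cells, and members of the Sprr2 group are also expressed in the intestine, where they are known to respond to bacteria and to epithelial injury.

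Levels are given as log2 of the processed signal minus log2 of the 75th percentile of the same array, so that 0 is a signal at that percentile and a difference of 1 is a doubling. Differences come from a limma fit over all arrays, with p values adjusted over all tested probes, and a gene is said to have risen or fallen where that adjusted p was under 0.05. Testing was limited to probes that Feature Extraction scored as well above background on 3 or more of the 14 arrays. The 75th percentile itself was an intensity of 707 to 1003 on water, 262 to 675 in Flox on DSS and 493 to 713 in GR iKO on DSS. Well above background were 62.6% to 71.2% of probes, and Flox DSS replicate 4 was lowest in both respects. Arrays of the same group correlated at r of 0.986 to 0.990 on water and 0.970 to 0.987 on DSS. The spread between mice was larger on DSS, with a median SD over members of 0.293 in Flox and 0.330 in GR iKO without DSS and, with DSS, of 0.716 in Flox and 0.420 in GR iKO. The number of arrays limits the precision, and p values measure the spread between mice of a group. The brightest of 4 probes for Nr3c1, which encodes GR, stood at 57.3% of the Flox level in GR iKO on water (exact two-sided permutation p = 0.0286, the smallest that 4 against 4 mice allow) and at 56.1% on DSS (exact p = 0.100, the smallest that 3 against 3 allow). The other 3 probes stood at 47.6% to 55.7% on water (exact p of 0.0286 to 0.143) and at 55.2% to 75.7% on DSS (exact p of 0.1 to 0.5). The position of these probes with respect to the loxP sites was not determined. All 7 colon epithelial markers were well above background on all 14 arrays, as the tissue label requires. Their presence was no check of colon against other parts of the intestine. In whole colon, fewer cells of a type and less RNA per cell cannot be told apart.

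Of the 56 members, 36 were tested. These were all 6 simple keratins, 13 of 18 stratified keratins, 6 of 18 hair and nail keratins, the keratin-like gene Krt222, and 10 of 13 Sprr genes. On all 14 arrays 23 members were well above background, and on none of them 11. The latter included Sprr1b and Sprr3, which encode envelope proteins of cornified and oesophageal epithelium, and Krt4, the usual partner of Krt13 in moist stratified epithelium. On a single array, 28 to 34 members were above background in Flox on water, 28 to 32 in GR iKO on water, 29 to 32 in Flox on DSS and 35 to 37 in GR iKO on DSS. No conclusion on a change can be drawn for the 20 members that failed the filter.

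The 6 simple keratins were above background in every mouse, and what they did with DSS differed from gene to gene. Relative to the 75th percentile, Krt20, the keratin of mature enterocytes and goblet cells near the lumen, rose in both genotypes (though on the spike-in scale described at the end it fell in Flox and was not called in GR iKO), and Krt19, which is found along the whole crypt, fell in Flox. The remaining members passed the test in neither genotype. Krt20 was at 7.04, 6.97, 7.25 and 6.72 in Flox on water and at 7.98, 7.34 and 7.40 in Flox on DSS. It was at 7.04, 6.96, 7.08 and 6.84 in GR iKO on water and at 7.63, 8.17 and 8.35 in GR iKO on DSS. Every DSS mouse thus lay above every water mouse of its genotype. The increase was 0.58 (SE 0.21, adjusted p = 0.0402) in Flox and 1.07 (SE 0.21, adjusted p = 0.00201) in GR iKO, and the former was not called when any of 6 of the 14 arrays was left out (adjusted p up to 0.284), nor with quantile normalization (adjusted p = 0.0536) or normexp background correction (adjusted p = 0.0740).

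Krt19 was at 7.54, 7.60, 7.82 and 7.55 in Flox on water and at 6.69, 6.32 and 7.22 in Flox on DSS, with no overlap, and fell by 0.88 (SE 0.20, adjusted p = 0.00347). In GR iKO it was at 7.49, 7.52, 7.74 and 7.65 on water and at 7.24, 7.01 and 7.74 on DSS. There the highest DSS mouse reached the highest water mouse, and the difference of -0.27 (SE 0.20) did not pass the test (adjusted p = 0.318). The effect of DSS on Krt19 was not shown to differ between genotypes, as the interaction was 0.61 (SE 0.29, adjusted p = 0.339).

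Krt8 and Krt18 form the main filament pair of simple epithelia. Krt8 was at 8.75, 8.30, 8.61 and 8.45 in Flox on water, 8.47, 8.65, 8.74 and 8.57 in GR iKO on water, 8.61, 8.36 and 8.99 in Flox on DSS and 8.41, 8.62 and 9.08 in GR iKO on DSS. All 4 groups overlapped, and its DSS differences were 0.12 (SE 0.20, adjusted p = 0.639) in Flox and 0.10 (SE 0.20, adjusted p = 0.734) in GR iKO. The sign in Flox turned with the scaling, and Krt8 was called lower there after quantile normalization (-0.47, adjusted p = 0.0208) and in the deposited value table (-0.47, adjusted p = 0.0195). Krt18 was at 7.21, 7.20, 7.25 and 6.81 in Flox on water, 7.20, 7.42, 7.21 and 7.12 in GR iKO on water, 6.42, 6.31 and 7.30 in Flox on DSS and 7.32, 7.19 and 7.08 in GR iKO on DSS. Replicates 1 and 2 of Flox on DSS were low and replicate 4 was not, and the difference in Flox was -0.44 (SE 0.22, adjusted p = 0.118). Without Flox DSS replicate 4, Krt18 was called lower in Flox, by -0.75 (adjusted p = 0.0102), as it was without Flox water replicate 4 (adjusted p = 0.0429) and with normexp background correction (adjusted p = 0.0261).

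Krt7, a keratin of ductal and glandular epithelia, was at 5.17, 5.07, 4.93 and 4.72 in Flox on water, 4.73, 4.89, 4.80 and 4.98 in GR iKO on water, 4.47, 4.54 and 4.75 in Flox on DSS and 5.03, 4.60 and 5.18 in GR iKO on DSS. Its DSS difference was -0.39 (SE 0.18, adjusted p = 0.0911) in Flox and 0.09 in GR iKO (SE 0.18, adjusted p = 0.717), while the other probe for the gene, of lower mean signal, fell in Flox by 0.90 (adjusted p = 0.00151), so that the probes for Krt7 disagreed on the call. The first probe was called lower in Flox with normexp background correction (adjusted p = 0.0388) and without Flox water replicate 4 (adjusted p = 0.0313). Krt23, a type I keratin of gastrointestinal and other glandular cells, was at 1.95, 1.49, 1.41 and 1.29 in Flox on water, 1.32, 1.79, 1.45 and 1.68 in GR iKO on water, -0.47, 0.03 and 1.91 in Flox on DSS and 1.86, 2.56 and 0.19 in GR iKO on DSS. It ranged more widely on DSS than on water in both genotypes. Its DSS difference was -1.05 (SE 0.50, adjusted p = 0.106) in Flox and -0.03 (SE 0.50, adjusted p = 0.970) in GR iKO, and without Flox DSS replicate 4 it was called lower in Flox, by -1.75 (adjusted p = 0.0121).

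**Figure D1:**
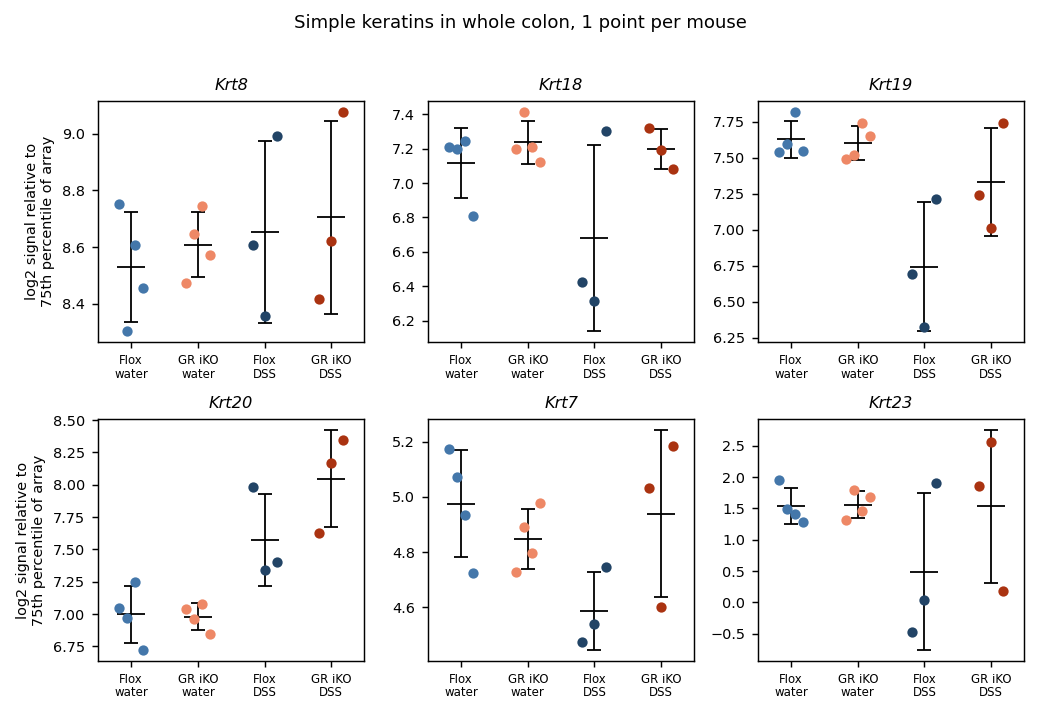
Levels of the 6 simple keratins, 1 panel per gene, with 1 point per mouse in each of the 4 groups, a horizontal bar at the group mean and error bars of 1 SD. The vertical axis is the log2 signal on the scale of each array's 75th percentile, filled points are well above background, and the DSS mice lie above the water mice of their genotype for Krt20 while the 4 groups overlap for Krt8.

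Across all members, DSS changed 12 of the 36 tested genes in Flox, 7 higher and 5 lower, and 14 in GR iKO, 12 higher and 2 lower. Of all 15533 named genes tested in Flox, 49.4% were called, 24.9% higher and 24.5% lower. In GR iKO 41.9% were called, 21.7% higher and 20.2% lower. The share of members called was therefore below that of all genes in Flox and near it in GR iKO. After quantile normalization 16 members were called in GR iKO, beside 41.8% of all genes, and with 1 shared spread 17, beside 47.1%. The 12 of 36 called higher in GR iKO were above the 21.7% of all genes. However, 7 of these 12 were Sprr genes, and probes of the Sprr2 copies may share signal, so they are not separate evidence. The median DSS difference over members was 0.12 in Flox and 0.65 in GR iKO, beside -0.03 and -0.00 over all genes. With the members that were at background in a group set to the lower bound of their change, it was 0.10 and 0.57. Both DSS contrasts rest on separate mice, but the contrasts between genotypes reuse the same DSS mice.

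The classes did not contribute equally. Of the simple keratins, 1 rose and 1 fell in Flox and 1 rose in GR iKO. Of 13 stratified keratins, 3 rose and 2 fell in Flox, and 3 rose and 1 fell in GR iKO. Of 6 hair and nail keratins, 2 fell in Flox, and 1 rose and 1 fell in GR iKO. Of 10 Sprr genes, 2 rose in Flox and 7 rose in GR iKO relative to the 75th percentile and none was called lower, whereas on a scale set by spike-in probes, described at the end, neither was called higher in Flox, and Sprr2b, Sprr2e, Sprr2k and Sprr2j-ps were not called higher in GR iKO. For simple keratins the class median of the DSS difference was -0.41 in Flox, against 0.03 in GR iKO, and it was 0.21 and 0.65 for stratified keratins, -0.60 and 0.23 for hair and nail keratins, and 0.27 and 1.03 for Sprr genes. With members at background set to their bound, the medians were 0.10 and 0.78 for Sprr genes and 0.21 and 0.48 for stratified keratins.

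**Figure D2:**
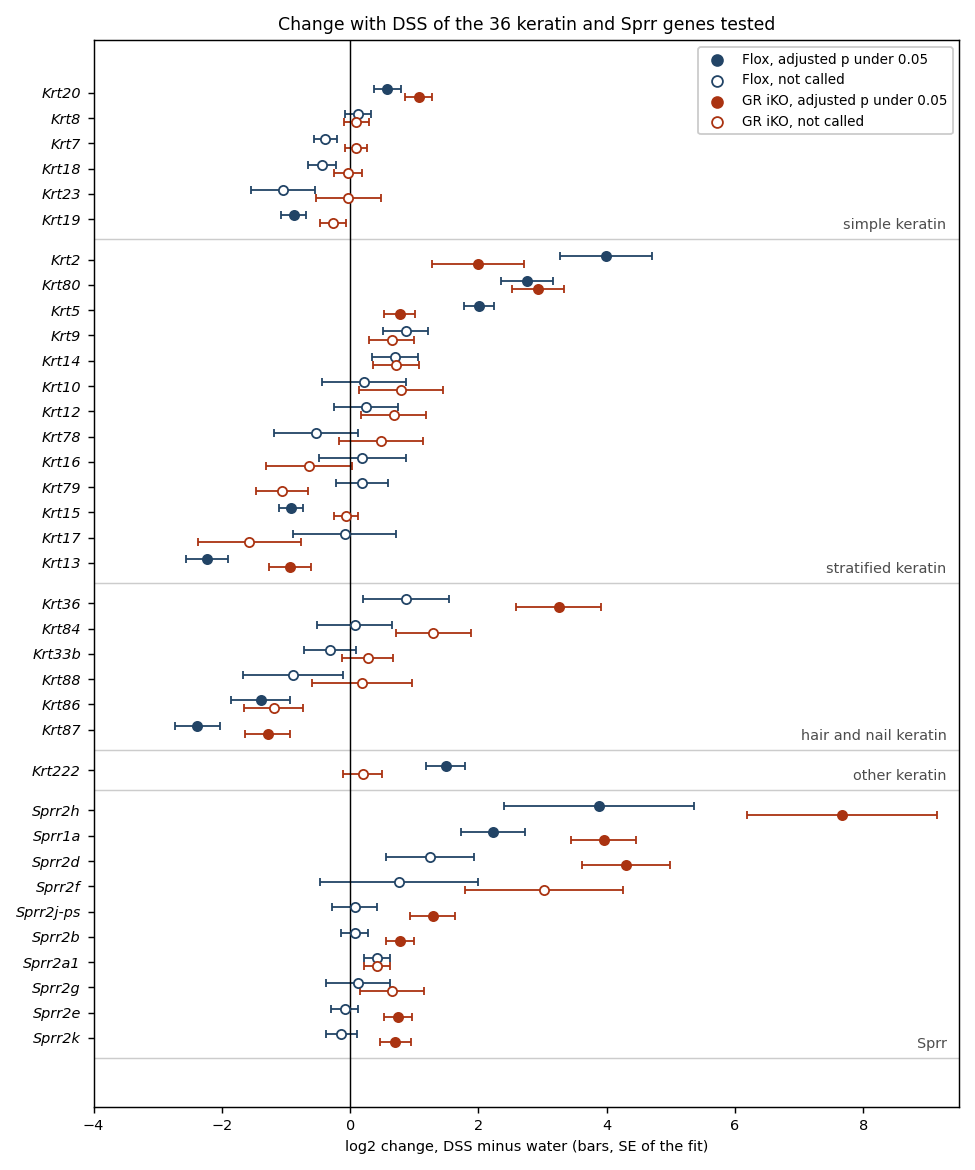
Difference between DSS and water for each of the 36 tested members, in log2 units on the horizontal axis, for Flox and GR iKO side by side, with error bars of 1 SE and filled points where the adjusted p was under 0.05. Sprr1a lies to the right at 2.23 and 3.95 and Krt87 and Krt13 lie to the left in both genotypes, while the points of Krt80, Krt2, Sprr2d and, in GR iKO, Sprr2f are fitted differences against water mice at background and no measured sizes. For Sprr2h several water mice were at background, so the size of its change is uncertain.

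The Sprr genes are shown with the sequence before their transcription start because the genes lie close together on chromosome 3 and some of the Sprr2 copies resemble each other. Shown are 6 of the called genes, and Sprr2f for comparison, as Sprr2j-ps had no window. The sequences are the 200 bases before the annotated start, 5′ to 3′ on the gene's own strand, from RefSeq on GRCm38.p6. They cover Sprr2b at chr3:92316505-92316704, Sprr2d at chr3:92338940-92339139, Sprr2e at chr3:92351943-92352142, Sprr2f at chr3:92364987-92365186, Sprr2h at chr3:92385485-92385684, Sprr2k at chr3:92432382-92432581 on the plus strand and Sprr1a at chr3:92485882-92486081 on the minus strand. Capitals mark matches to 3 motifs searched on both strands, TATAAA (the TATA box), ATTTGCAT (the octamer bound by POU factors) and TGANTCA (the AP-1 site).
Sprr1a: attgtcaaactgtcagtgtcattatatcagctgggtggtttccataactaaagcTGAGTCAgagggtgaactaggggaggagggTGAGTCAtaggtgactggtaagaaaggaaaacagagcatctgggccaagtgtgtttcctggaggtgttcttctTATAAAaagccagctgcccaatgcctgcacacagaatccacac
Sprr2b: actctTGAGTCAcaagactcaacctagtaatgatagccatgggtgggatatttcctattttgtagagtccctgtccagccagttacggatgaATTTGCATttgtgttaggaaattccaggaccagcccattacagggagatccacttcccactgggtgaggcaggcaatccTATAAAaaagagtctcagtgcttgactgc
Sprr2d: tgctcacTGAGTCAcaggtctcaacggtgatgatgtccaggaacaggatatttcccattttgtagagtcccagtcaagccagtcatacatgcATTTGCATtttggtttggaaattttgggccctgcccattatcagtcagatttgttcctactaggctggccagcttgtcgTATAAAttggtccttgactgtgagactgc
Sprr2e: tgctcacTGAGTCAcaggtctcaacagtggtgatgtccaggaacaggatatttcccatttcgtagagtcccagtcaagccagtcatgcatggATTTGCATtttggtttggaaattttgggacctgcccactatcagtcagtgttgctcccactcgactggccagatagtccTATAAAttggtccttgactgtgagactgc
Sprr2f: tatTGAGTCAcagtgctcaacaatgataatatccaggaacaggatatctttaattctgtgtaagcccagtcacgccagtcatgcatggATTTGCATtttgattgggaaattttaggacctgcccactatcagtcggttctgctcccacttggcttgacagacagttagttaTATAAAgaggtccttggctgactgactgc
Sprr2h: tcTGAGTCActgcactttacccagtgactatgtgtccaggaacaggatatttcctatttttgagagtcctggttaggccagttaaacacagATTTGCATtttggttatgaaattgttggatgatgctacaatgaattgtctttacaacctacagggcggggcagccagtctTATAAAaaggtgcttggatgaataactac
Sprr2k: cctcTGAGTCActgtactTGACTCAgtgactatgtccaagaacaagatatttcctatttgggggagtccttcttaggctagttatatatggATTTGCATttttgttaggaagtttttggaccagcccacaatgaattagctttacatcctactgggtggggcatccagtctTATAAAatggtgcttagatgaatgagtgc
The 6 printed Sprr2 sequences carried TATAAA 29 bases before the start, ATTTGCAT 108 to 112 bases before it and TGANTCA 193 to 198 bases before it. Sprr2k had a further TGANTCA at 182. The window of Sprr2a1, which is not printed, held none of these 3 motifs. Sprr1a had TATAAA at 43 and TGANTCA at 146 and 116, and no ATTTGCAT in the window. None of the printed matches overlapped another. In windows from 250 bases before to 50 bases after the start, TATAAA was found in 9 of 11 Sprr genes and 14 of 29 keratin windows, against 13.6% of 32851 mouse windows. ATTTGCAT was found in 6 of 11 and 0 of 29, against 1.74%, and TGANTCA in 8 of 11 and 2 of 29 (both windows of Krt13), against 7.81%. TGTTCT, the half-site of the GR binding element, was found in 3 of 11 (Sprr1a, Sprr2e and Sprr2k) and 6 of 29, against 19.0%. Counted without gaps over the 200 bases, pairs of the printed Sprr2 sequences were 30.5% (Sprr2f and Sprr2k) to 92.0% (Sprr2d and Sprr2e) identical, with Sprr2h and Sprr2k at 72.0%. Sprr2a1 matched the printed Sprr2 sequences at 21.0% to 29.0%. It matched Sprr2a2, a copy without a named probe here, at all 200. A match is a description of these letters and no measure of binding. Probe sequences were not used here, so signal of near-identical Sprr2 transcripts may be shared between probes, and a value assigned to an Sprr2 copy is uncertain in that respect.

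Sprr1a, an envelope precursor known to be induced by injury, rose with DSS in both genotypes, in Flox not on the spike-in scale. It was at -0.94, -0.57, -1.35 and -1.23 in Flox on water and at 2.21, 0.97 and 0.43 in Flox on DSS, an increase of 2.23 (SE 0.50, adjusted p = 0.00318). It was at -0.34, -0.58, -1.81 and -1.12 in GR iKO on water and at 3.11, 2.77 and 3.09 in GR iKO on DSS, an increase of 3.95 (SE 0.50, adjusted p = 0.000118). In both genotypes each DSS mouse lay above each water mouse. The 3 GR iKO mice on DSS lay close together and above the 3 Flox mice on DSS, a difference not called in the main fit.

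Sprr2h, of the same group of copies, rose in both genotypes, in Flox not on the spike-in scale. It was at -4.50, -5.94, -7.50 and -7.37 in Flox on water, where it was above background on 1 of 4 arrays, and at -1.65, -2.20 and -3.48 in Flox on DSS. It was at -5.17, -4.54, -7.96 and -7.81 in GR iKO on water, above background on 2 of 4 arrays, and at 3.96, -0.87 and 0.80 in GR iKO on DSS. No DSS mouse overlapped a water mouse of its genotype. The increase was 3.89 (SE 1.48, adjusted p = 0.0469) in Flox, where leaving out any of 7 of the 14 arrays (adjusted p up to 0.195) or quantile normalization (adjusted p = 0.0566) lost the call, and 7.67 (SE 1.48, adjusted p = 0.00171) in GR iKO.

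Sprr2d was well above background in none of the 8 water mice, so that only a lower bound of its change can be given. It was at -6.82, -7.63, -7.44 and -6.89 in Flox on water and at -5.11, -6.13 and -6.63 in Flox on DSS, where 1 of 3 arrays was above background, at least 1.04-fold higher (adjusted p = 0.157). It was called in Flox with the compared arrays alone (adjusted p = 0.0308) and without GR iKO DSS replicate 3 (adjusted p = 0.0383). It was at -6.85, -7.18, -6.94 and -6.49 in GR iKO on water and at -0.43, -4.94 and -2.34 in GR iKO on DSS, all above background. That was at least 9.72-fold higher with DSS in GR iKO (adjusted p = 0.000526), with no overlap and with replicate 1 the highest.

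Sprr2b and Sprr2e, both above background in every mouse, rose in GR iKO, each by less than 1 log2 unit, which the spike-in scale did not show. Sprr2b was at 5.61, 5.51, 5.59 and 5.61 in Flox on water and 6.07, 5.20 and 5.67 in Flox on DSS (difference 0.07, SE 0.21, adjusted p = 0.817). It was at 5.23, 5.60, 5.47 and 5.87 in GR iKO on water and 6.30, 6.46 and 6.20 in GR iKO on DSS (0.78, SE 0.21, adjusted p = 0.0126). Flox mice on DSS thus lay on both sides of Flox mice on water. GR iKO mice on DSS lay above all others, though their difference from Flox mice on DSS was not called in the main fit. Sprr2e was at 5.43, 5.33, 5.42 and 5.51 in Flox on water and 5.76, 4.95 and 5.30 in Flox on DSS (-0.09, SE 0.21, adjusted p = 0.767). It was at 5.16, 5.43, 5.34 and 5.78 in GR iKO on water and 6.06, 6.40 and 6.06 in GR iKO on DSS (0.75, SE 0.21, adjusted p = 0.0158, and 0.0703 without GR iKO DSS replicate 3). The order of the mice on DSS was much the same as for Sprr2b.

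Sprr2k and Sprr2j-ps, the latter annotated as a pseudogene, followed the same outline. Sprr2k was at 4.66, 4.48, 4.52 and 4.77 in Flox on water, 4.94, 3.91 and 4.54 in Flox on DSS, 4.31, 4.63, 4.36 and 4.86 in GR iKO on water and 4.98, 5.54 and 5.22 in GR iKO on DSS. Its DSS difference was -0.14 (SE 0.24, adjusted p = 0.662) in Flox and 0.70 (SE 0.24, adjusted p = 0.0366) in GR iKO, where leaving out any of 4 arrays lost the call (adjusted p up to 0.151). Sprr2j-ps was at 3.37, 3.49, 3.57 and 3.73 in Flox on water, 4.11, 2.98 and 3.76 in Flox on DSS, 2.76, 2.99, 3.45 and 3.85 in GR iKO on water and 4.53, 4.79 and 4.33 in GR iKO on DSS. For both genes the DSS mice were separate from the water mice in GR iKO and mixed with them in Flox. The difference for Sprr2j-ps was 0.07 (SE 0.35, adjusted p = 0.886) in Flox and 1.29 (SE 0.35, adjusted p = 0.0116) in GR iKO, where it was 0.33 (adjusted p = 0.633) on the spike-in scale.

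The other 3 tested Sprr genes passed the main test in neither genotype, and are named to complete the family. Sprr2a1, an Sprr2 gene with high signal on every array (7.26 to 8.24), differed by 0.41 and 0.42 in the respective genotypes (adjusted p = 0.111 and 0.124), while the other probe for the gene rose in GR iKO by 0.56 (adjusted p = 0.0375) and not in Flox (0.11, adjusted p = 0.667). Sprr2a1 was also called in GR iKO after quantile normalization (0.49, adjusted p = 0.0371). Sprr2f was above background on 4 of the 14 arrays, 2 of them GR iKO on DSS at -2.98 and -4.29, while the remaining GR iKO mouse on DSS was at -7.93. As no GR iKO mouse on water was above background, it was at least 1.72-fold higher with DSS in GR iKO (adjusted p = 0.0706, and 0.0190 without that mouse). It was called in both genotypes with normexp background correction (adjusted p = 0.0360 in Flox and 0.00546 in GR iKO). Sprr2g differed by 0.12 (adjusted p = 0.861) and 0.66 (adjusted p = 0.326).

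**Figure D3:**
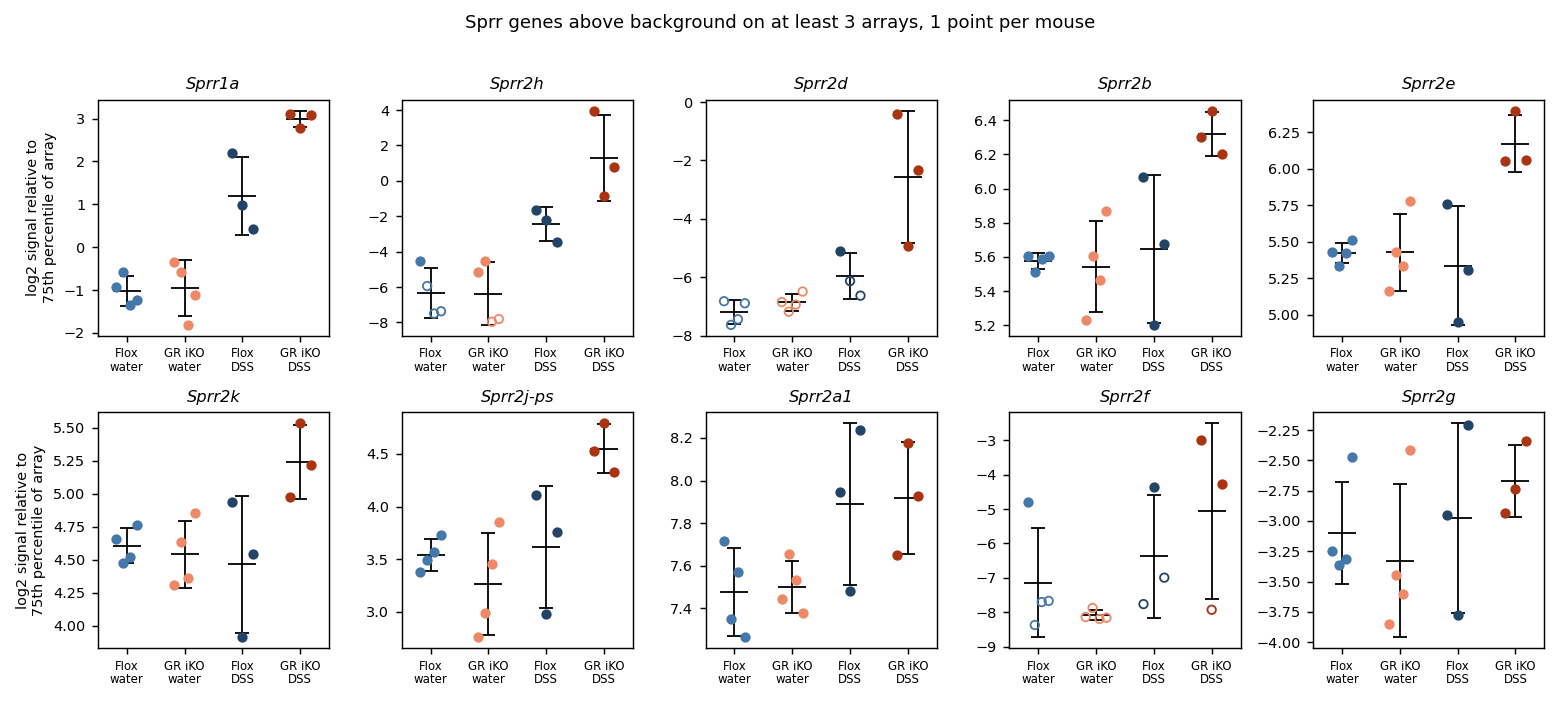
Levels of the 10 tested Sprr genes, 1 panel per gene, with 1 point per mouse, bars at the mean and error bars of 1 SD, on the log2 scale set to each array's 75th percentile. Open points are not well above background, as for Sprr2d in all 8 water mice, and the 3 GR iKO mice on DSS lie above the other groups for Sprr1a, Sprr2b, Sprr2d, Sprr2e, Sprr2h, Sprr2j-ps and Sprr2k. None of these was called between genotypes on DSS in the main fit.

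Among stratified keratins, Krt5, Krt80 and Krt2 rose with DSS in both genotypes relative to the 75th percentile, but on the spike-in scale only Krt2 in Flox and Krt80 in GR iKO were called. Krt5, the type II keratin of basal cells in stratified epithelium, was at -3.85, -4.20, -4.22 and -4.02 in Flox on water and at -2.20, -2.10 and -1.89 in Flox on DSS, a rise of 2.01 (SE 0.24, adjusted p = 4.14e-05) or 4.03-fold. It was at -3.65, -4.14, -4.31 and -3.80 in GR iKO on water and at -3.49, -3.20 and -2.92 in GR iKO on DSS, a rise of 0.77 (SE 0.24, adjusted p = 0.0216) that was lost without either of 2 of the arrays (adjusted p up to 0.124). The groups did not overlap in either genotype. The 3 Flox mice on DSS lay above the 3 GR iKO mice on DSS, a difference not called in the main fit.

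Krt80, a type II keratin found with desmosomes in many epithelia, was not above background on any water array, at -6.69, -6.91, -6.99 and -7.39 in Flox and -6.54, -7.27, -6.84 and -7.62 in GR iKO. On DSS it was at -3.74, -3.74 and -5.24 in Flox and -3.92, -4.32 and -4.19 in GR iKO. It was thus above every water mouse in every DSS mouse, though below the background limit in Flox DSS replicate 4. The rise was at least 3.39-fold in Flox (adjusted p = 0.000204) and at least 3.26-fold in GR iKO (adjusted p = 0.000218).

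Krt2, a keratin of the upper epidermis, was also not above background on water, at -6.64, -8.45, -7.77 and -7.57 in Flox and -7.60, -7.86, -7.78 and -7.52 in GR iKO. On DSS it was at -2.86, -4.29 and -3.70 in Flox and at -8.01, -4.93 and -4.14 in GR iKO. The 3 Flox mice on DSS were clear of the water mice, whereas GR iKO DSS replicate 1 stayed at the water level. The rise was at least 5.18-fold in Flox (adjusted p = 0.000758) and at least 1.12-fold in GR iKO (adjusted p = 0.0435), and the latter call was lost without any of 11 of the 14 arrays (adjusted p up to 0.277) and after quantile normalization (adjusted p = 0.0600). The other probe for Krt2 was above background on no array.

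Krt13 and Krt15 fell. Krt13, a type I keratin of moist stratified epithelia, was at 0.68, 0.95, 1.04 and 0.62 in Flox on water and -1.78, -2.13 and -0.33 in Flox on DSS, a fall of 2.24, with SE 0.33 (log2 difference -2.24, adjusted p = 0.000185). It was at 0.71, 0.49, 0.50 and 0.99 in GR iKO on water and 0.05, -0.55 and -0.27 in GR iKO on DSS (-0.93, SE 0.33, adjusted p = 0.0391, up to 0.147 without any of 6 arrays). No DSS mouse overlapped a water mouse of its genotype. The other probe for Krt13 was above background only on 2 GR iKO arrays on DSS, so that it gives no measure of the fall.

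Krt15, a type I keratin of basal cells, was at -3.04, -2.97, -3.22 and -3.47 in Flox on water and at -4.20, -3.80 and -4.29 in Flox on DSS, without overlap, and fell by 0.92 (SE 0.19, adjusted p = 0.00172), but with normexp background correction the difference was -0.05 (adjusted p = 0.788). In GR iKO it was at -3.20, -3.26, -3.44 and -3.35 on water and -3.18, -3.50 and -3.46 on DSS. The GR iKO groups overlapped, with a difference of -0.07 (SE 0.19, adjusted p = 0.798).

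Krt14, of basal cells, and Krt16 and Krt17, of wound repair in skin, did not pass the main test. With Krt6a and Krt6b, they are named here after their values were seen. Krt14, the partner of Krt5, differed by 0.70 and 0.71 in the respective genotypes (adjusted p = 0.128 and 0.138), and was called higher in both with slide as a block (0.85, adjusted p = 0.0108 in Flox, and 0.71, adjusted p = 0.0305 in GR iKO) and in Flox with normexp background correction (adjusted p = 0.0322) or the compared arrays alone (adjusted p = 0.0323). Krt16 differed by 0.19 and -0.64 (adjusted p = 0.839 and 0.487), with Flox DSS replicate 4 at 1.07 far above the other DSS mice of its genotype at -2.38 and -3.03. Krt17 differed by -0.08 and -1.57 (adjusted p = 0.942 and 0.143), and was called in GR iKO with 1 shared spread (adjusted p = 0.0483). Krt6a was above background on 2 and Krt6b on 1 of the 14 arrays, all of them GR iKO on DSS, and neither was tested.

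Hair and nail keratins were mostly at background. Krt36, a type I hair keratin, was at -3.53, -2.56, -3.24 and -4.04 in Flox on water, -2.11, -4.03 and -1.28 in Flox on DSS, -3.39, -3.71, -4.12 and -3.73 in GR iKO on water and 1.21, -1.45 and -1.23 in GR iKO on DSS. It overlapped in Flox (0.87, SE 0.67, adjusted p = 0.307) and was separate in GR iKO, where it rose by 3.25 (SE 0.67, adjusted p = 0.00248). The other probe for the gene gave 0.42 in Flox and a rise of 3.16 in GR iKO (adjusted p = 0.00150).

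Krt86 and Krt87, type II hair keratins, were above background in all water mice, with lower means on DSS. Krt86 was at -3.00, -3.10, -3.29 and -3.04 in Flox on water and -3.28, -5.96 and -4.28 in Flox on DSS. It fell in Flox by 1.39 (SE 0.46, adjusted p = 0.0260), although DSS replicate 1 lay within the water range, and the call was lost without DSS replicate 2 (adjusted p = 0.246), with the compared arrays alone (adjusted p = 0.0732) and with normexp background correction (-0.12, adjusted p = 0.698). In GR iKO it was at -3.77, -3.59, -3.52 and -2.99 on water and -3.76, -4.98 and -5.24 on DSS (-1.19, SE 0.46, adjusted p = 0.0586). There it was called lower with the compared arrays alone (adjusted p = 0.0391), quantile normalization (adjusted p = 0.0370) and the deposited value table (adjusted p = 0.0365). The same held without Flox DSS replicate 1 (adjusted p = 0.0379), Flox DSS replicate 2 (adjusted p = 0.0224) or GR iKO DSS replicate 1 (adjusted p = 0.0290). Krt87 was at -3.09, -2.98, -3.30 and -2.98 in Flox on water, -4.98, -6.27 and -5.16 in Flox on DSS, -3.93, -3.65, -3.38 and -3.16 in GR iKO on water and -4.01, -4.92 and -5.51 in GR iKO on DSS. It fell in both genotypes with no overlap, by 2.38 in Flox (SE 0.35, adjusted p = 0.000194) and by 1.28 in GR iKO (SE 0.35, adjusted p = 0.0122). With normexp background correction neither fall was called (-0.47, adjusted p = 0.0747 in Flox, and -0.27, adjusted p = 0.333 in GR iKO), nor was the fall in GR iKO without its DSS replicate 4 (adjusted p = 0.0967).

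Krt222, a keratin-like gene of little studied function, rose in Flox, though not on the spike-in scale. It was at -4.52, -5.00, -5.02 and -5.20 on water and at -3.32, -3.48 and -3.54 on DSS, an increase of 1.49 (SE 0.31, adjusted p = 0.00178) with no overlap. In GR iKO it was at -4.24, -4.07, -4.79 and -4.74 on water and -4.68, -3.80 and -4.30 on DSS, which overlapped (0.20, SE 0.31, adjusted p = 0.639).

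**Figure D4:**
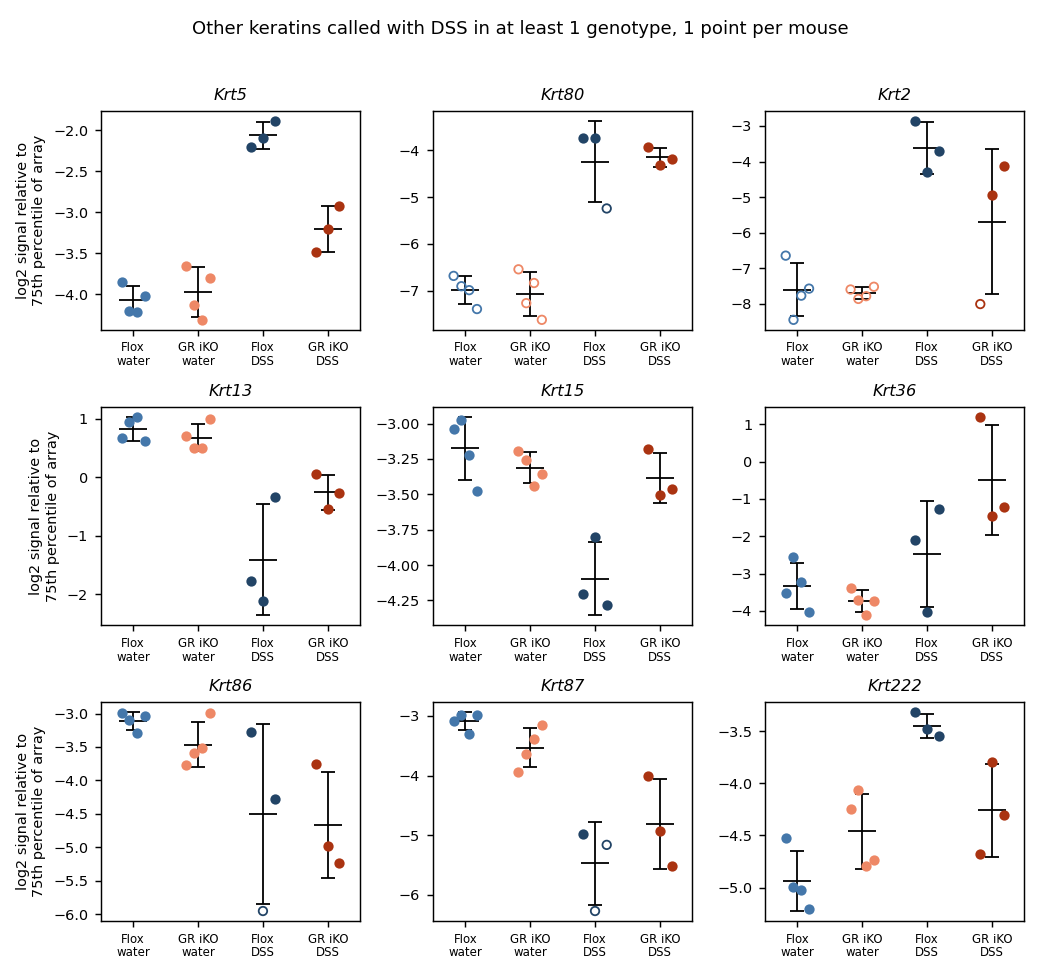
Levels of the 9 keratins other than simple keratins that were called with DSS in at least 1 genotype, 1 panel per gene, with 1 point per mouse, bars at the mean and error bars of 1 SD, on the log2 scale set to each array's 75th percentile. Relative to the 75th percentile, Krt5, Krt80 and Krt2 are higher (on the spike-in scale only Krt2 in Flox and Krt80 in GR iKO were called) and Krt13 and Krt87 lower on DSS, open points are not well above background, and the GR iKO DSS point at -8.01 sets the wide bar of Krt2.

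No member was called between genotypes. On water, 0 of 36 members passed in limma, beside 0.0258% of all genes, 1 member (Krt222) had an unadjusted p under 0.05 beside 431 of all 15533 genes, and a fit with 1 shared spread also called 0. The smallest adjusted p of a member on water rounded to 1.00, and the class medians were -0.04 for Sprr genes, 0.00 for simple keratins and -0.08 for stratified keratins. On DSS, 0 members passed in limma, again beside 0.0258% of all genes, 12 had an unadjusted p under 0.05 beside 3067 of all genes, and the fit with 1 shared spread for water and DSS arrays called 7 (Sprr1a, Sprr2b, Sprr2d, Sprr2e, Krt15, Krt5 and Krt79) beside 14.8% of all genes, where a fit of the DSS arrays alone called 0. The call between genotypes on DSS thus rested on whether water and DSS arrays were taken to vary alike.

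The differences on DSS are therefore given as fitted. Sprr2d was 3.39 higher in GR iKO than in Flox (SE 0.88, adjusted p = 0.0968), Sprr1a 1.79 (SE 0.64, adjusted p = 0.180) and Sprr2e 0.84 (SE 0.27, adjusted p = 0.152). As Sprr2d was above background on only 1 of 3 Flox arrays on DSS, its difference is no measured size. For Sprr2d, Sprr1a and Sprr2e, the 3 GR iKO mice lay above the 3 Flox mice. How many of all genes were separate in this way was not counted, so no genotype effect is drawn from it. The largest differences of Sprr genes, stratified keratins and hair and nail keratins were 3.74 (Sprr2h), -2.07 (Krt2) and 1.98 (Krt36). Krt2 was above background on only 2 of 3 GR iKO arrays on DSS, so its size is uncertain. Krt5 was lower, at -1.14 (SE 0.30, adjusted p = 0.0994), and Krt15 and Krt13 higher, at 0.71 (adjusted p = 0.159) and 1.16 (adjusted p = 0.182). The median of the genotype difference on DSS was 0.89 for Sprr genes, 0.50 for simple keratins, -0.06 for stratified keratins and 0.68 for hair and nail keratins.

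The interaction, which compares the DSS response of GR iKO with that of Flox, also called 0 of 36 members in limma, beside 0% of all genes, with 13 at an unadjusted p under 0.05 beside 2535 of all genes, and 0 in the fit with 1 shared spread. The differences in response were -1.24 for Krt5 (SE 0.33, adjusted p = 0.161), 0.85 for Krt15 (adjusted p = 0.187), -1.29 for Krt222 (adjusted p = 0.211) and 1.73 for Sprr1a (adjusted p = 0.287). For Sprr2d, at background in all water mice, the interaction has no measured size (adjusted p = 0.192). Without GR iKO DSS replicate 3, Sprr2d was called in the interaction (adjusted p = 0.0480) and between genotypes on DSS, and without Flox DSS replicate 4 Krt13 was called between genotypes on DSS. That a member passed the DSS test in 1 genotype and not in the other therefore does not show that the response differed.

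Partners of these genes were read from lists, to be held against the 24.9% of all genes higher and 24.5% lower in Flox and 21.7% and 20.2% in GR iKO. Of 22 tested cornified envelope genes, 4 rose and 4 fell in Flox, and 6 rose and 3 fell in GR iKO. Tgm1, the transglutaminase that crosslinks Sprr proteins in keratinocytes, rose by 3.32 in Flox and 3.72 in GR iKO, while Tgm3, another transglutaminase of the envelope, differed by -5.46 and -3.70 and fell in both. Lor, which encodes loricrin, the main envelope protein of epidermis, fell too (-1.10 and -1.67). Casp14, a protease of cornification, fell in Flox, at least 7.96-fold, and differed by -2.45 in GR iKO (adjusted p = 0.0517).

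Of 16 adhesion and regulator genes of stratified epithelium, 3 rose and 7 fell in Flox, and 7 rose and 1 fell in GR iKO. Pkp1, a desmosomal plaque protein, fell (-2.72 and -2.59), Col17a1, a hemidesmosome collagen, rose (1.92 and 1.95), and Sox2, a transcription factor of foregut epithelium, was at least 2.89-fold higher in Flox and at least 1.40-fold higher in GR iKO. Of 13 tested genes that link keratin filaments or belong to other intermediate filaments, 4 rose and 2 fell in Flox, and 5 rose and 1 fell in GR iKO. Among them, Plec, a plakin linking filaments to hemidesmosomes, rose (1.64 and 1.62), Eppk1, a plakin that bundles keratin, fell (-1.97 and -1.37), and Vim, the intermediate filament of mesenchymal cells, rose (1.24 and 1.06). No gene of these lists was called between genotypes or in the interaction.

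Markers of cells that could carry these transcripts moved as well, and their part in the results was not tested. Of 7 colon epithelial markers, 3 fell in Flox (Cdx1 by 2.60, Epcam by 0.69, Cldn7 by 0.46) and 1 fell in GR iKO (Cdx1 by 1.59), with a summed linear level, relative to the 75th percentile, of 531 to 671 and 547 to 667 on water and 460 to 813 and 551 to 805 on DSS, in Flox and GR iKO respectively. Of 9 squamous markers with a probe, Dsg3, Krtdap, Ivl, Calml3 and Dsg1a were above background on no array and Trp63, the regulator of squamous identity, on 1 (Flox on DSS). The 3 that were tested were Lor, Col17a1 and Serpinb5, of which 1 rose and 2 fell in Flox and 1 rose and 1 fell in GR iKO, and the summed level was 14.2 to 18.8 and 16.4 to 19.2 on water and 6.51 to 12.6 and 13.1 to 19.5 on DSS.

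All 6 neutrophil markers rose in both genotypes, by 3.01 to 8.08 in Flox and 4.41 to 9.76 in GR iKO, and their summed level went from 0.12 to 0.43 on water to 24.1 to 66.9 on DSS in Flox, and from 0.13 to 0.55 to 79.1 to 284 in GR iKO. Of 5 mesothelial markers, Wt1 rose in Flox (3.62) and differed by 2.46 in GR iKO (adjusted p = 0.0542), with a summed level of 0.76 to 4.65 and 1.97 to 3.63 on water and 1.62 to 21.7 and 4.92 to 14.9 on DSS. Of 7 skeletal muscle markers, 2 rose (Ckm by 2.07, Acta1 by 1.16) and 2 fell in Flox and 1 fell in GR iKO (Myh2, -5.45), with a summed level of 3.19 to 5.68 and 3.76 to 6.05 on water and 7.15 to 11.5 in Flox and 3.40 to 5.07 in GR iKO on DSS. Of 4 urothelial markers, Upk2 and Upk3a were above background on no array, and the summed level was 0.27 to 0.38 and 0.27 to 0.34 on water and 0.16 to 1.49 and 0.35 to 0.89 on DSS, with Flox DSS replicates 1 and 2 at 1.01 and 1.49.

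The arrays lay on 4 slides, with every group spread over several of them. Within slides that held both treatments, the DSS minus water difference had the direction of the group on all 3 such slides for 12 of 12 called members in Flox and 13 of 14 in GR iKO, the exception being Krt2 (-0.41 to 3.38). Except for Krt86 in Flox and Krt2 in GR iKO, the DSS and water mice of each called member did not overlap. Their direction within a slide was thus fixed in advance, and these counts are no check on an effect of slide. Scaling the arrays to 8 spike-in probes, which are added in fixed amount to the RNA, instead of the 75th percentile moved every DSS difference by -2.36 in Flox and -0.96 in GR iKO. The median of all tested probes was then -2.44 and -0.98, beside -0.09 and -0.02. On that scale the increases of Sprr1a, Krt222, Krt20 and Krt5 in Flox and of Sprr2b, Sprr2e, Sprr2k and Krt5 in GR iKO became negative differences, and the increases of Sprr2h and Krt80 in Flox and of Sprr2j-ps, Krt20 and Krt2 in GR iKO were no longer called. All these increases thus hold only relative to the other probes of the array. Quantile normalization gave 5 higher and 6 lower in Flox and 12 higher and 4 lower in GR iKO, and normexp background correction, with medians of all tested probes of 0.22 and 0.13, gave 11 higher and 4 lower and 12 higher and 1 lower.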

How the data were processed

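Colonic RNA of 14 mice was hybridised with Cy3 to 14 one-colour arrays. The labels gave each mouse its group and replicate number. The authors read the scans with Agilent Feature Extraction 12.0.0.7 (file header). The deposited intensity is on a linear scale, background-subtracted, with small values raised to a positive surrogate. After scaling, this floor was not level between groups, so a fold change of a dim probe can be too small or too large. Of the 11 members above background on no array, all but Krt34 had a higher mean level on DSS in Flox. In GR iKO this held for all but Krt34 and Sprr1b. Sprr3, for example, had means of -8.06 on water and -7.41 on DSS in Flox, and of -7.99 and -7.80 in GR iKO. The deposited value table holds log2 values, and how these were normalized is not given in the sources used here (lowest r with the log2 processed intensity 0.999), and the submitters' processing notes name Partek 6.6. It was used as an alternative. The test used for these arrays is not given in the sources used here.

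In the re-analysis, 1639 of 45018 spots were controls and left out, flagged outlier spots were set to missing (97 tested probes had a missing value, and the fit used the remaining arrays), and spots were averaged to 41174 probes. No spot was saturated. From each array's log2 intensities its 75th percentile was subtracted. Probes well above background on at least 3 of 14 arrays were tested (29523). RefSeq accessions named 28223 of 29245 probes through a gene table of GRCm38.p6. The array grid was drawn on mm9, so no probe coordinates are given. Group means were fitted with limma 3.58.1 in R 4.3.3 over all 14 arrays, with array weights of 1.69 on water and 0.497 on DSS, and tests were two-sided with Benjamini-Hochberg adjustment over all tested probes. Where a group was not well above background on any array, the change of a named gene is given as a lower bound: the mean of the brighter group against, per array of the dimmer group, the higher of its own value and the lowest signal among probes well above background.

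Members, gene lists and tests were chosen with earlier results of these data known, and a list is described by counts alone. All tested simple keratins, and all other members called in at least 1 comparison, are given by array, and up to 4 called genes of other lists are named. Members outside this rule were named after their values were seen. Alternatives were 1 shared spread, the compared groups alone, quantile normalization, normexp background correction (offset 50, on median signals, chosen after seeing the files), the deposited value table, spike-in scaling, other filters on dim probes, slide or replicate number as a block, the mean of all probes of a gene, and leaving out each array. The fits were tested on simulated data.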

Additional observations from a re-analysis of the deposited data

Results flagged for a closer look

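In 1 of 46 groups of 4 mice checked, a single mouse stood far from the others. Krt18 in Flox on water was at 6.81 in replicate 4 against 7.20 to 7.25 in the other 3 mice, a gap of 0.892 of the range of the group, above Dixon's critical value for 4 samples. Chance alone flags about 1 in 20 such groups.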

How the results depend on the processing

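Of 26 calls of single members with DSS, 15 passed the test under every alternative tried except spike-in scaling, and 0 changed direction. Under spike-in scaling, run for single members after seeing the data, 8 of them turned, in Flox to -0.13 (Sprr1a), -0.87 (Krt222), -1.78 (Krt20, adjusted p = 0.000322) and -0.35 (Krt5), and in GR iKO to -0.18 (Sprr2b), -0.21 (Sprr2e), -0.26 (Sprr2k) and -0.19 (Krt5), by the shift of all probes. Another 5 lost their call (Sprr2h and Krt80 in Flox, Sprr2j-ps, Krt20 and Krt2 in GR iKO). That scaling called 28 members with DSS in Flox (1 higher, 27 lower) beside 84.8% of all genes, 13 in GR iKO (5 higher, 8 lower) beside 45.1%, and 17 in the interaction beside 28.1%, and the difference of Nr3c1 between genotypes on DSS was 0.39 instead of -0.83. Under 1 shared spread, 7 members were called between genotypes on DSS, beside 14.8% of all genes. The deposited value table gave 5 higher and 6 lower in Flox and 12 higher and 4 lower in GR iKO, and no filter on dim probes gave 10 and 5, and 14 and 1. Leaving out 1 array gave 10 to 13 called members in Flox, 9 to 15 in GR iKO (9 without GR iKO DSS replicate 4), 0 to 0 between genotypes on water, 0 to 1 on DSS and 0 to 1 in the interaction, and differences of Nr3c1 of -0.86 to -0.74 on water and -0.93 to -0.74 on DSS. Without Flox DSS replicate 4, Krt20 (adjusted p = 0.0507) and Sprr2h (adjusted p = 0.0604) were not called in Flox. With the replicate number as a block, 13 members were called with DSS in Flox, 13 in GR iKO (Krt13 and Krt2 not among them) and 0 in the other comparisons. Same-numbered mice correlated at -0.08 to 0.31, which does not show what they share. Within a genotype, same-numbered water and DSS mice also lay on the same slide. Slide as a block gave 14 and 15, with Krt14 called in both genotypes. Dim probes, such as Krt80, Krt2 and Sprr2d on water, limit the size of a change to a lower bound.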
